A study of Sus scrofa with 12 samples.

Results

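The RNA response to culture that pig fat cells and pig granulosa cells had in common was measured on all 12 of the 12 arrays of the series, and 129 of 6469 named genes moved by similar amounts in both lineages by the rule given below. It was taken as the culture effect, which is the mean of the 2 cultured groups minus the mean of the 2 isolated groups on the log2 scale, with both lineages weighted equally. The cultured groups were DFAT, dedifferentiated fat cells that had come from mature adipocytes through ceiling culture, and DFOG, granulosa cells that had dedifferentiated in vitro. Both had been grown to semiconfluence. The isolated groups were MA, mature adipocytes from fat tissue, and GC, granulosa cells from ovarian follicles. Each group had 3 arrays from pigs (Sus scrofa), with no transgene or agent named in the labels, which give no age, sex, breed or passage. Because isolated cells were set against cultured ones in both lineages, what is due to dedifferentiation and what to culture as such cannot be told apart. The study looked for functions of genes that go up or down as either cell type dedifferentiates, and the comparison here asks which genes moved by similar amounts in both. Members of gene lists named below as examples of similar, smaller or opposite changes were picked after their values were seen.

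In ceiling culture, buoyant adipocytes rise and stick to the roof of a full flask, lose their lipid and spread into fibroblast-like, dividing cells. Granulosa cells normally line the follicle as layered epithelial-like cells and make sex steroids, inhibin and follistatin, and on plastic they too flatten and spread. Cells that spread on a stiff surface are known to build actin stress fibres anchored at integrin adhesions, to lay down fibrillar matrix and to move actin-sensitive coactivators (MRTF with SRF, YAP and TAZ with TEAD) into the nucleus. Tissue dissociation, in turn, is known to induce immediate early genes such as FOS and JUN in freshly isolated cells.

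The values were the authors' log2 levels after robust multi-array averaging, which sets all arrays to 1 distribution, so that a gene's change is measured relative to the rest of the array. DFOG replicates 2 and 3 were nearly identical, with an SD of their difference of 0.07 over all probe sets against 0.31 to 0.62 for the other pairs, and were averaged to 1 sample, so that DFOG has n = 2 and the fit rests on 11 samples. The labels call the arrays biological replicates but name no animals or cultures, so the spread behind the p-values is that between these samples and may be technical. The actin control's 3′ probe set minus its 5′ one, a difference that grows as RNA is shorter or less fully copied, averaged 0.61 ± 0.33 in DFAT and 0.39 ± 0.33 in DFOG, against 1.88 ± 0.52 in MA and 1.35 ± 0.55 in GC (SD). The spiked poly-A controls averaged 7.66 in DFAT and 7.74 in DFOG, against 8.29 in MA and 6.95 in GC. The IRP 3′ control stood apart in DFAT 2 (8.50) and DFAT 3 (5.48). In bulk samples fewer cells of a type and less RNA per cell cannot be told apart.

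Culture moved a large set of genes in the same direction in both lineages, and a small set of them by amounts that were close by the rule given below. Of 23999 probe sets, 4042 rose (16.8%) and 4398 fell (18.3%) in the culture effect at a limma adjusted p under 0.05. Of the 6469 genes that could be named, 1523 rose (23.5%) and 1348 fell (20.8%). Those that rose in DFAT against MA and also in DFOG against GC, each tested alone, numbered 552 (8.53%), and 334 fell in both (5.16%). Another 241 named genes passed in both lineages in opposite directions. The change differed between the lineages for 5593 probe sets (23.3%). With that actin difference as a covariate (called the actin covariate below) 1992 probe sets rose and 2609 fell, and 3969 of the 8440 calls stayed in the same direction. The covariate itself ran with culture, at 0.15 to 0.97 in cultured arrays and 0.72 to 2.48 in isolated ones. A call lost with it, here and below, can therefore come from RNA quality or from lower precision, which cannot be told apart. When each array was instead centred on its poly-A spikes (poly-A centring), which moves the median change to 0.56 in fat cells and -0.81 in granulosa cells, 2651 rose and no gene met the rule for similar rises given below.

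The sum of squares between the 4 group means, added over all probe sets, was split into 39.8% for culture, 39.9% for lineage and 20.3% for their interaction. After the part expected from the replicate spread was taken off, the shares were 40.3%, 40.3% and 19.4%. The cultured cells of both origins lay closer to each other than the isolated ones: the SD of the difference between group means was 0.73 for DFAT and DFOG, against 1.39 for MA and GC. Between DFAT and DFOG 1921 probe sets differed, against 9713 between MA and GC. Over probe sets, which are not independent replicates, the changes of the lineages correlated with Pearson's r of 0.33 and Spearman's rho of 0.26 (n = 23999).

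**Figure D1:**
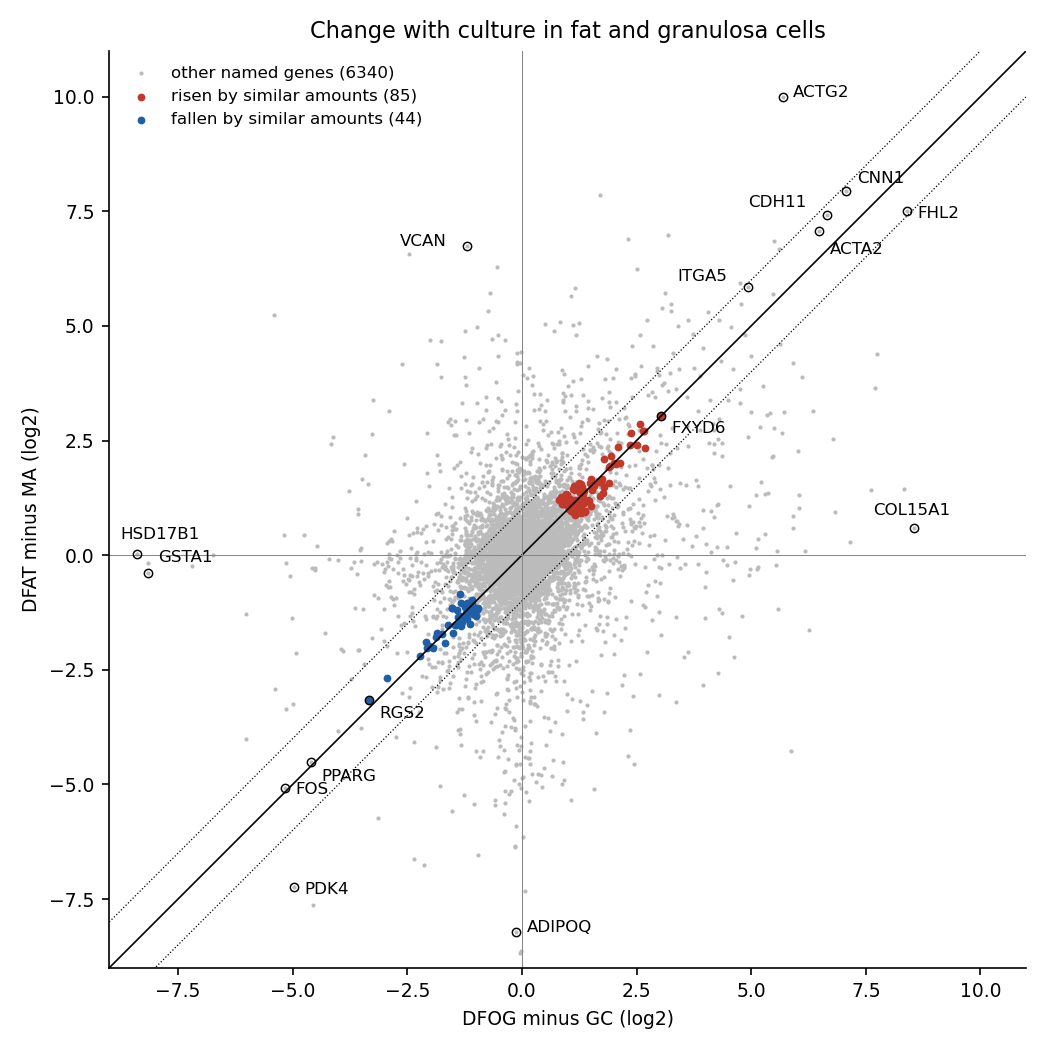
Change with culture of 6469 named genes, DFOG minus GC on the x axis and DFAT minus MA on the y axis (log2), 1 point per gene. The solid line marks equal changes and the dotted lines a difference of 1. Red and blue points are the 85 genes that rose and the 44 that fell by similar amounts. FHL2, CNN1, CDH11, ACTA2, PPARG and FOS also lie between the dotted lines, while ADIPOQ and HSD17B1 moved in 1 lineage and lie on the axes.

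Similar amounts was a rule of size. A gene met it if its culture effect passed the test and was at least 1 on the log2 scale, if cultured and isolated samples did not overlap in either lineage, and if the 95% interval of the difference between the 2 changes lay within -1 to 1, which is 2-fold either way. Changes in fat cells are DFAT minus MA, and changes in granulosa cells are DFOG minus GC. A change within 1 lineage that did not pass its own test is marked as not passed wherever it is printed. By this rule 85 named genes rose (1.31%) and 44 fell (0.68%), with median culture effects of 1.25 and -1.33. The measured values chose these genes, so their size, likeness and lack of overlap are a description. A further 80 probe sets without a gene name rose and 66 fell by the same rule. The interval is wide with these sample numbers and was not adjusted for the number of genes. Without that demand, with a difference of the estimates under 1, the rule takes 292 genes that rose and 171 that fell, and the largest changes common to both lineages stand in this wider set. The wider set keeps the demand for no overlap. Lack of overlap in a gene of either set, wherever it is given below, therefore follows from the rule.

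Of 28 measured members of the stress fibre and focal adhesion list, 26 rose, 1 fell and 1 did not pass, and 22 rose in both lineages tested alone. The list's median culture effect was 3.09, against 0.00 over all named genes, with 3.55 in fat cells and 3.20 in granulosa cells, and 24 to 27 members rose under the 20 alternatives. FHL2, a LIM-domain protein of focal adhesions and the nucleus, was at 11.90, 11.99 and 11.52 in DFAT, against 4.58, 3.99 and 4.34 in MA. In granulosa cells it was at 12.27 and 11.76 in DFOG, against 3.64, 3.42 and 3.79 in GC. The gene was near the bottom of the scale in every isolated sample and high in every cultured one, with no overlap, and its culture effect was 7.95 ± 0.16 (SE, limma adjusted p = 3.77e-10).

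ACTA2, the smooth muscle alpha-actin of stress fibres, was at 14.20, 14.34 and 14.36 in DFAT, against 7.58, 6.97 and 7.13 in MA. The granulosa lineage had 14.08 and 14.28 in DFOG, against 7.55, 7.29 and 8.24 in GC. All 5 cultured samples lay between 14.08 and 14.36 near the top of the scale, far above the isolated samples, and the culture effect was 6.78 ± 0.18 (SE, limma adjusted p = 1.12e-09). The changes were 7.07 in fat cells and 6.49 in granulosa cells, and the 95% interval of their difference (-0.21 to 1.38) reaches past the bound, so that this gene stands in the wider set. CNN1, the calponin that binds smooth muscle actin, changed by 7.50 ± 0.19 (SE, limma adjusted p = 8.91e-10), with 7.93 in fat cells and 7.07 in granulosa cells. ACTG2, another smooth muscle actin, also rose in both, with a culture effect of 7.84 ± 0.11, but by more in fat cells (difference 4.32, limma adjusted p = 4.18e-07).

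TPM1, a tropomyosin that lies along actin filaments, met the narrow rule. It was at 13.89, 14.25 and 13.98 in DFAT, against 11.50, 11.30 and 11.35 in MA, and at 13.85 and 13.79 in DFOG, against 11.60, 11.25 and 11.49 in GC. The 4 groups formed just 2 levels, with all cultured samples at 13.79 or above and all isolated samples at 11.60 or below. Its culture effect was 2.52 ± 0.12 (SE, limma adjusted p = 5.55e-08) and the interval of the difference between lineages ran from -0.23 to 0.80. TPM4, another tropomyosin, rose by 2.22 ± 0.12, and VCL, the vinculin that links integrin adhesions to actin, by 2.45 ± 0.18. VCL was at 12.27, 13.37 and 12.77 in DFAT, against 10.59, 10.48 and 10.12 in MA, and at 12.13 and 12.21 in DFOG, against 9.60, 9.66 and 9.74 in GC, without overlap in either lineage, as the rule demands. The filament depolymerising factor DSTN rose by 1.94 ± 0.14, the light chain MYL9 by 3.53 ± 0.26 and the heavy chain of non-muscle myosin MYH9 by 2.60 ± 0.18. The LIM and PDZ protein PDLIM7 rose by 4.76 ± 0.26 and the capping protein CAPG by 4.34 ± 0.13. The actin crosslinker ACTN1 (4.61 in fat cells and 5.63 in granulosa cells) and the smooth muscle genes TAGLN (3.64 in fat cells and 7.71 in granulosa cells) and TPM2 (6.85 in fat cells and 5.51 in granulosa cells) rose in both by amounts that differed. The exceptions were FHL1, which fell (-0.91) with -2.75 in fat cells and 0.92 in granulosa cells, and TPM3, which did not pass (0.45).

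**Figure D2:**
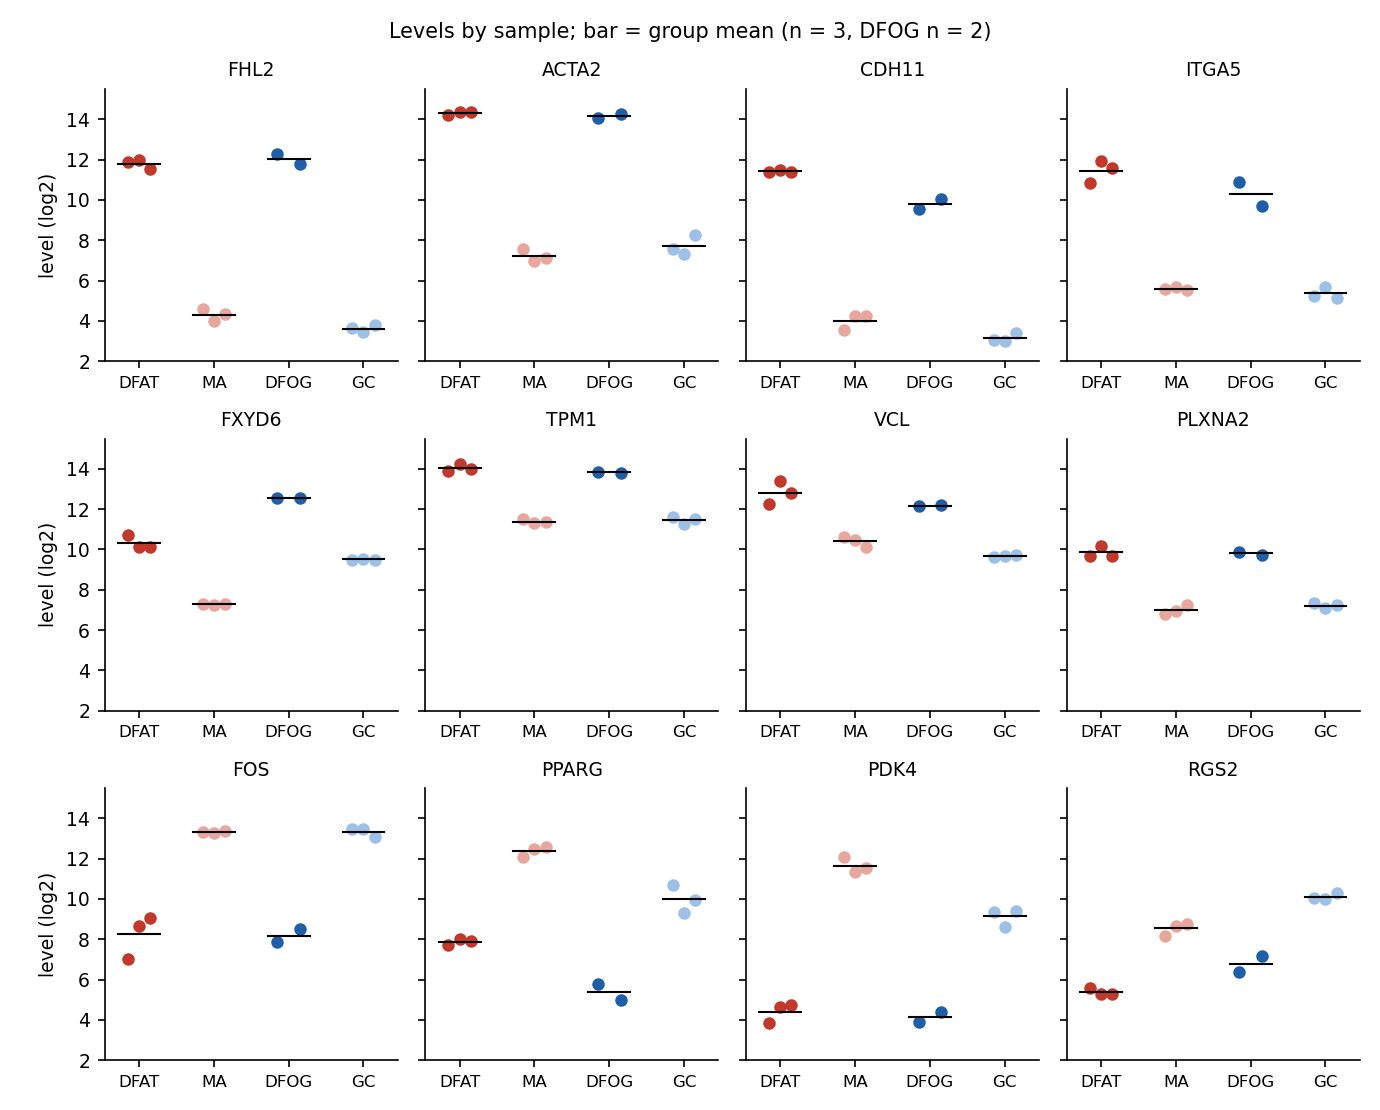
Levels (log2) of 12 genes in each sample, with DFAT left of MA and DFOG left of GC; points are samples, bars are group means (n = 3, DFOG n = 2). FHL2, ACTA2, CDH11, ITGA5, FXYD6, TPM1, VCL and PLXNA2 are higher in every cultured sample of a lineage, and FOS, PPARG, PDK4 and RGS2 lower, with no overlap. All but PDK4 belong to the narrow or the wider set, which both demand no overlap.

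Integrins, which tie actin to the matrix, rose for some members. In the list of integrins and matrix receptors 9 of 14 members rose and none fell by limma (also none at an unadjusted p under 0.05), 7 of them in both lineages, with a median of 1.11. ITGA5, the alpha chain of the fibronectin receptor, was at 10.84, 11.91 and 11.56 in DFAT, against 5.58, 5.66 and 5.55 in MA. It was at 10.89 and 9.70 in DFOG, against 5.25, 5.70 and 5.13 in GC. Every cultured sample was above 9 and every isolated sample below 6 on this scale, and the culture effect was 5.39 ± 0.24 (SE, limma adjusted p = 4.55e-08). ITGA8 rose by 4.71 ± 0.20 and SDC1, a heparan sulphate proteoglycan receptor, by 3.92 ± 0.16. ITGB1, the beta chain that partners ITGA5 and ITGA8, met the narrow rule with a smaller rise of 1.01 ± 0.13. ITGB3 rose in both lineages by different amounts, 2.26 in fat cells and 6.02 in granulosa cells. ITGA6 (0.03), ITGB5 (0.19), SDC4 (0.35), DDR1 (0.08) and CD47 (0.54) did not pass.

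Fibrillar matrix genes were raised by culture in unequal amounts. Of 24 measured, 18 rose and 1 fell, with a median of 2.47, and 10 rose in both lineages tested alone, while the change differed between lineages for 14. Fibronectin, FN1, was at 13.53, 14.29 and 14.09 in DFAT, against 9.33, 9.66 and 9.80 in MA. It was at 13.63 and 13.71 in DFOG, against 6.14, 5.94 and 5.71 in GC. The cultured groups overlapped at a high level, while MA stood well above GC, and the culture effect was 6.06 ± 0.16 (SE, limma adjusted p = 1.13e-09) with a lineage difference of -3.36. TNC (tenascin C) rose by 6.98 in fat cells and 3.19 in granulosa cells, the small proteoglycan LUM by 3.89 in fat cells and 6.10 in granulosa cells, and DCN by 1.42 in fat cells and 7.61 in granulosa cells. In MA 1, 2 and 3 LUM was at 6.15, 8.67 and 8.91 and DCN at 9.42, 10.97 and 11.10, and the macrophage gene C1QC ran the same way at 4.74, 8.12 and 8.40. Without MA 1 the change in fat cells was 3.01 for LUM (limma adjusted p = 0.000101) and 0.89 for DCN, which no longer passed there (limma adjusted p = 0.138). The type I collagen chain COL1A2 rose by 3.52 ± 0.36 and the fibrillin FBN1, which met the wider rule, by 3.02 ± 0.20. COL5A3 fell (-4.14 in fat cells and -0.11 in granulosa cells, not passed), and the type III collagen COL3A1 did not pass (-0.58).

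The enzymes that modify and crosslink collagen were higher in culture for 11 of 12 members, while BMP1 fell (-1.13). Just 4 of the 12 passed in both lineages alone. The crosslinking enzyme LOX rose by 2.53 in fat cells and 6.79 in granulosa cells, LOXL1 by 3.84 in fat cells and 1.81 in granulosa cells and the prolyl hydroxylase subunit P4HA2 by 3.22 in fat cells and 1.44 in granulosa cells. The collagen chaperone FKBP10 changed by 4.89 in fat cells and 0.70 in granulosa cells, not passed. Of the 12, 7 rose with the actin covariate. Among 7 basement membrane genes 3 rose and 2 fell, and the sizes were unlike: COL15A1 rose by 0.60 in fat cells and 8.56 in granulosa cells, LAMB1 changed by 0.30 in fat cells, not passed, and 7.16 in granulosa cells and NID2 by 0.69 in fat cells, not passed, and 3.43 in granulosa cells, while SPARCL1 changed by -4.87 in fat cells and 0.01 in granulosa cells, not passed.

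Matrix proteolysis genes rose for 11 of 17 members and fell for 1, TIMP3 (-1.21), with a median of 0.90. Just 5 of the 17 rose in both lineages tested alone. The gelatinase MMP2 rose by near equal amounts, 2.74 in fat cells and 2.55 in granulosa cells, with a culture effect of 2.64 ± 0.39 (SE, limma adjusted p = 0.000274). The tissue plasminogen activator PLAT rose by 3.12 ± 0.21, the urokinase PLAU by 4.56 in fat cells and 2.40 in granulosa cells, the inhibitor TIMP1 by 5.73 in fat cells and 3.13 in granulosa cells and the collagenase MMP1 by 2.98 in fat cells and 4.29 in granulosa cells. The rise of MMP1 in fat cells was uneven, with 4.95, 8.14 and 7.22 in DFAT, against 3.84, 3.89 and 3.66 in MA. Of the 17, 5 rose with the actin covariate.

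Surface and transcription factor genes of mesenchymal cells rose for 9 of 13 members, and 7 of them rose in both lineages, with a median of 2.32. CDH11, the cadherin of mesenchymal cells, was at 11.40, 11.49 and 11.39 in DFAT, against 3.57, 4.25 and 4.22 in MA. In the granulosa lineage it was at 9.56 and 10.03 in DFOG, against 3.06, 2.99 and 3.39 in GC. It was near the bottom of the scale in all isolated samples, and the cultured samples did not overlap with them (culture effect 7.03 ± 0.16 SE, limma adjusted p = 5.25e-10). The Thy-1 antigen THY1 rose by 4.24 in fat cells and 4.35 in granulosa cells (4.29 ± 0.41 SE, limma adjusted p = 1.08e-05), the repressor SNAI1 by 3.02 in fat cells and 2.27 in granulosa cells and the homeobox gene PRRX1 by 5.00 in fat cells and 3.41 in granulosa cells. In MA 1, 2 and 3 THY1 was at 6.22, 8.03 and 8.44, as for LUM and DCN above, and without MA 1 its change in fat cells was 3.56. MA 1 was also the lowest MA sample for FKBP10 and PLAU, and for AEBP1 (6.20, 7.55 and 7.82), METRNL and LGALS3, given below. Other genes ran otherwise, such as ACTA2, which was highest in MA 1. The part of other cells or of RNA quality in these MA levels was not tested. The intermediate filament gene VIM (0.20), ALCAM (-0.03), MCAM (1.06) and TWIST2 (-0.22) did not pass.

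Genes known to respond to YAP, TAZ and TEAD rose for 7 of 10 members and fell for 1. Just 2 of the 10 rose in both lineages tested alone, and the list median was 0.34 in fat cells and 1.04 in granulosa cells. ANKRD1, a muscle ankyrin repeat protein, rose by 1.68 in fat cells and 2.56 in granulosa cells and the transcription factor TEAD4 by 2.67 in fat cells and 1.70 in granulosa cells, whereas CYR61 had a culture effect of 0.67. F3, the tissue factor that starts coagulation, had -0.31 in fat cells, not passed, and 5.12 in granulosa cells. GADD45B, which also responds to stress, fell in both (-1.98 in fat cells and -1.36 in granulosa cells). With the actin covariate, with the poly-A centring or without DFAT replicates 2 and 3, 4 of the 10 rose. The ligand TGFB1 rose by 2.15 in fat cells and 4.37 in granulosa cells, TGFB2 by 1.59 in fat cells and 2.90 in granulosa cells, and the receptor ACVR1 by 1.25 in fat cells and 1.98 in granulosa cells. In all 9 of 15 TGF-beta and activin genes rose and 3 fell, 4 rose in both lineages tested alone, and 5 rose with the actin covariate. Among 14 growth factors and receptors 4 rose (28.6%, near the 23.5% over all named genes) and 1 fell (7.1%, against 20.8%). Tested alone, 3 rose in both lineages. The PDGF receptor PDGFRB rose by 3.39 in fat cells and 4.50 in granulosa cells, FGFR2 by 2.73 in fat cells and 4.18 in granulosa cells and the cytokine LIF by 2.16 in fat cells and 5.48 in granulosa cells, and the growth hormone receptor GHR fell by 4.15 in fat cells and by 1.32 in granulosa cells on the log2 scale.

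Of 11 annexin, S100 and caveola genes 9 rose, but the list median was -0.20 in fat cells, against 1.93 in granulosa cells. Just 2 of the 11 rose in both lineages tested alone, and 3 passed in opposite directions. S100A11, a calcium-binding protein, met the narrow rule with 1.41 in fat cells and 1.53 in granulosa cells, and LGALS3, the lectin galectin-3, stood in the wider set with 4.80 in fat cells and 4.87 in granulosa cells. LGALS3 varied among the isolated adipocytes, at 5.61, 7.44 and 7.76 in MA 1, 2 and 3. CAV1, the coat protein of caveolae, was at 13.14, 12.77 and 12.68 in DFAT, against 13.21, 13.09 and 12.95 in MA, and at 10.10 and 9.27 in DFOG, against 4.03, 4.39 and 4.05 in GC. In fat cells it was high with and without culture, and in granulosa cells it was high in culture and near the bottom of the scale without it. S100A10 moved in opposite directions, -1.33 in fat cells and 4.81 in granulosa cells.

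**Figure D3:**
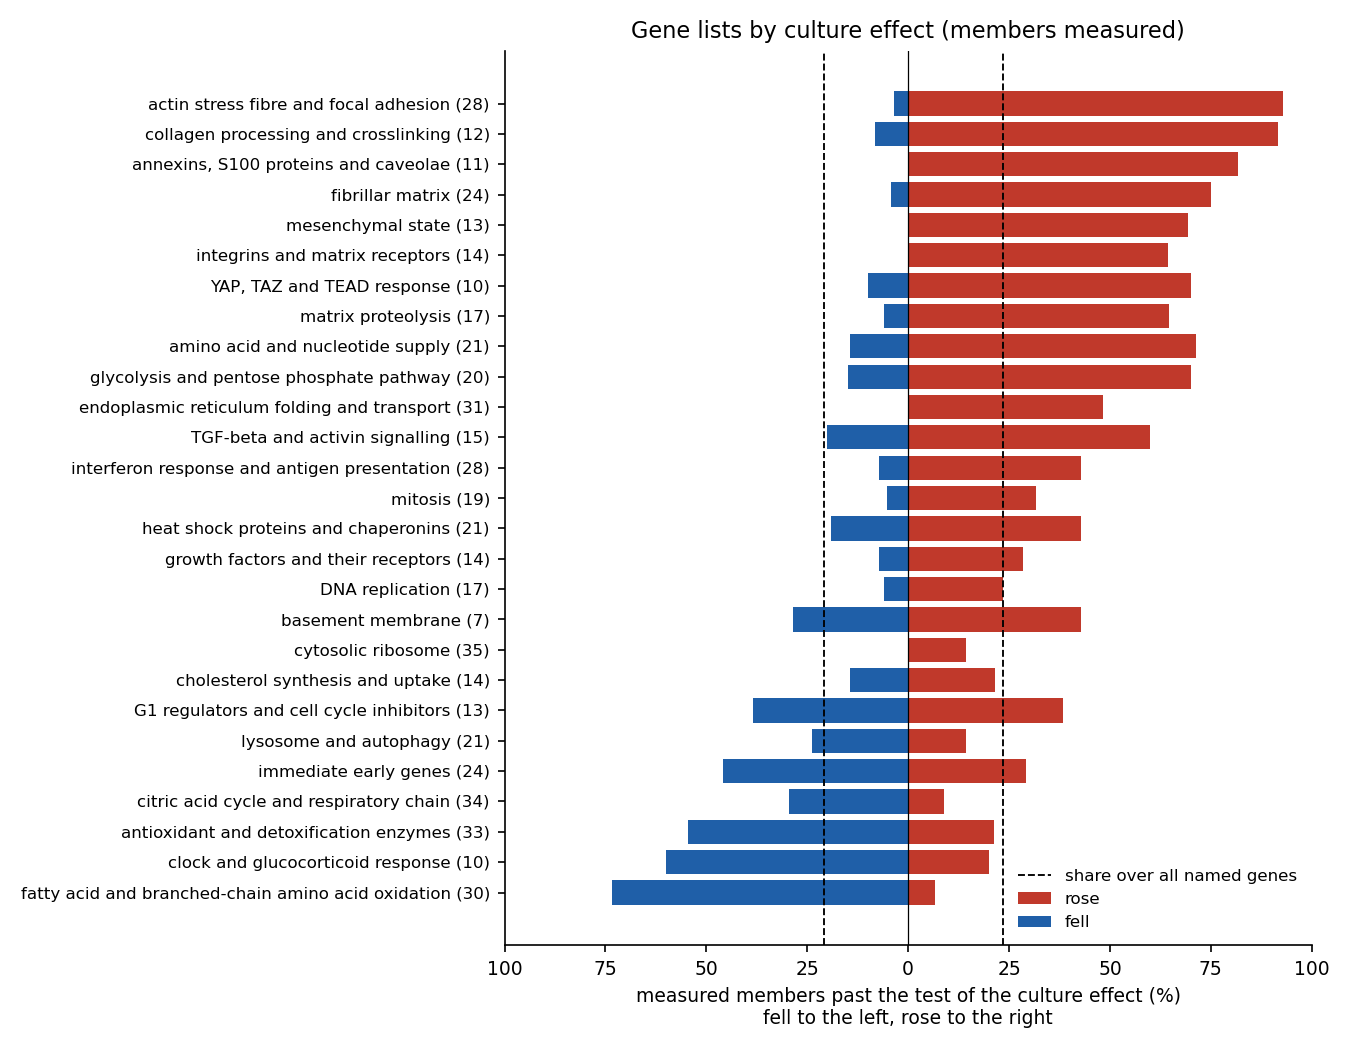
Share of the measured members of 27 gene lists that rose (red, to the right) or fell (blue, to the left) in the culture effect, with the number measured in brackets; dashed lines are the shares over all named genes, 23.5% and 20.8%. The actin list has 26 of 28 members risen, and the fatty acid and branched-chain amino acid oxidation list 22 of 30 fallen.

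Where a gene had several probe sets, the brightest stands for it, and others can differ. For example, 1 of 2 probe sets passed in the direction given for ACTG2, LOX, DCN, RCN1, ANKRD1 and SPARCL1. The number was 2 of 3 for VCL and AKR1CL1 and 3 of 4 for FN1 and SDC1. The 15 largest rises within the narrow rule were led by FXYD6, a regulator of the sodium pump. FXYD6 was at 10.69, 10.14 and 10.11 in DFAT, against 7.29, 7.26 and 7.31 in MA. It was at 12.55 and 12.52 in DFOG, against 9.49, 9.54 and 9.49 in GC. It rose by nearly equal amounts in both lineages (3.03 in fat cells and 3.03 in granulosa cells, culture effect 3.03 ± 0.12 SE, limma adjusted p = 2.45e-08), while the granulosa lineage stood above the fat lineage with and without culture (lineage effect, fat minus granulosa, -2.22). PLXNA2, a receptor for semaphorins, was at 9.70, 10.19 and 9.69 in DFAT, against 6.80, 6.95 and 7.24 in MA, and at 9.87 and 9.72 in DFOG, against 7.33, 7.09 and 7.22 in GC. Here both lineages shared a high level in culture and a low level in isolated cells. Its culture effect was 2.72 ± 0.14 (SE, limma adjusted p = 9.11e-08).

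The other rises in this group covered several functions. The ADP-ribosyltransferase gene PARP8 rose by 2.68 ± 0.17, the mitochondrial carrier SLC25A21 by 2.51 ± 0.13 and the secreted factor METRNL by 2.38 ± 0.20. FKBP11, a prolyl isomerase of the endoplasmic reticulum, rose by 2.08 ± 0.15, the spermine oxidase SMOX by 2.05 ± 0.12, the calcium-binding protein NUCB2 by 2.02 ± 0.18 and the costimulatory receptor CD40 by 2.01 ± 0.19. CD40 was at 6.98, 6.82 and 7.63 in DFAT, against 5.53, 5.10 and 4.74 in MA, and at 7.30 and 6.93 in DFOG, against 5.25, 4.91 and 5.16 in GC, so that the cultured levels were themselves low on this scale. P14ARF, the annotation's name for a cell cycle inhibitor, rose by 1.93 ± 0.17. SLA-6, a class I histocompatibility gene of the pig, had a value of 2.69 ± 0.17 on the probe set used, while 1 of its 2 probe sets passed, and near-identical class I genes may share its signal. TPM1, VCL, TPM4 and DSTN, described above, complete the 15.

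The falls within the narrow rule were led by RGS2, which speeds the shut-off of G protein signals. RGS2 was at 5.57, 5.29 and 5.28 in DFAT, against 8.18, 8.65 and 8.77 in MA. It was at 6.38 and 7.15 in DFOG, against 10.04, 9.98 and 10.28 in GC. All cultured samples lay below all isolated samples of both lineages, and the culture effect was -3.25 ± 0.17 (SE, limma adjusted p = 1.23e-07), seen on 2 of its 3 probe sets. CD200, a membrane glycoprotein that restrains myeloid cells, was at 4.69, 4.40 and 3.87 in DFAT, against 6.78, 6.96 and 7.27 in MA, and at 5.61 and 5.45 in DFOG, against 8.37, 8.59 and 8.46 in GC. It fell in both (-2.68 in fat cells and -2.94 in granulosa cells), with no overlap in either lineage, as the rule demands.

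NFKBIA, the inhibitor of NF-kappaB and one of its own targets, was at 9.03, 9.90 and 8.81 in DFAT, against 11.09, 11.27 and 11.34 in MA, and at 7.83 and 7.96 in DFOG, against 10.21, 9.71 and 9.86 in GC. The falls were nearly equal, -1.99 in fat cells and -2.03 in granulosa cells (-2.01 ± 0.19 SE, limma adjusted p = 1.07e-05), and the fat lineage stood above the granulosa lineage with and without culture. The kinase PIM2 changed by -2.22 ± 0.20, the aldo-keto reductase AKR1CL1 by -2.05 ± 0.15, TDRP by -1.99 ± 0.15 and the homeobox gene HOXD8 by -1.98 ± 0.15. The remaining ones were ELMO3 (-1.83), which acts in cell motility, the dehydrogenase HSD17B8 (-1.80), the lysophosphatidic acid receptor LPAR6 (-1.78), the nucleotide sugar hydrolase NUDT14 (-1.74), the microtubule kinase MARK1 (-1.60), the secretory chaperone SCG5 (-1.57), the DNA polymerase POLI (-1.49) and RBM48 (-1.47).

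A measure the rule did not use was the lineage effect, the mean of the fat groups minus the mean of the granulosa groups. The rule favours genes with a small standard error, however, and the lineage effect shares that error. Its calls among these genes are therefore not independent of the rule. The lineage effect passed the test for 30 of the 85 genes that rose by similar amounts (16 higher in fat cells, 14 higher in granulosa cells) and for 23 of the 44 that fell, against 2752 of all 6469 named genes (42.5%). FXYD6 is an example of a gene that rose equally and differed between lineages throughout, and PLXNA2 one that stood at the same levels in both.

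**Figure D4:**
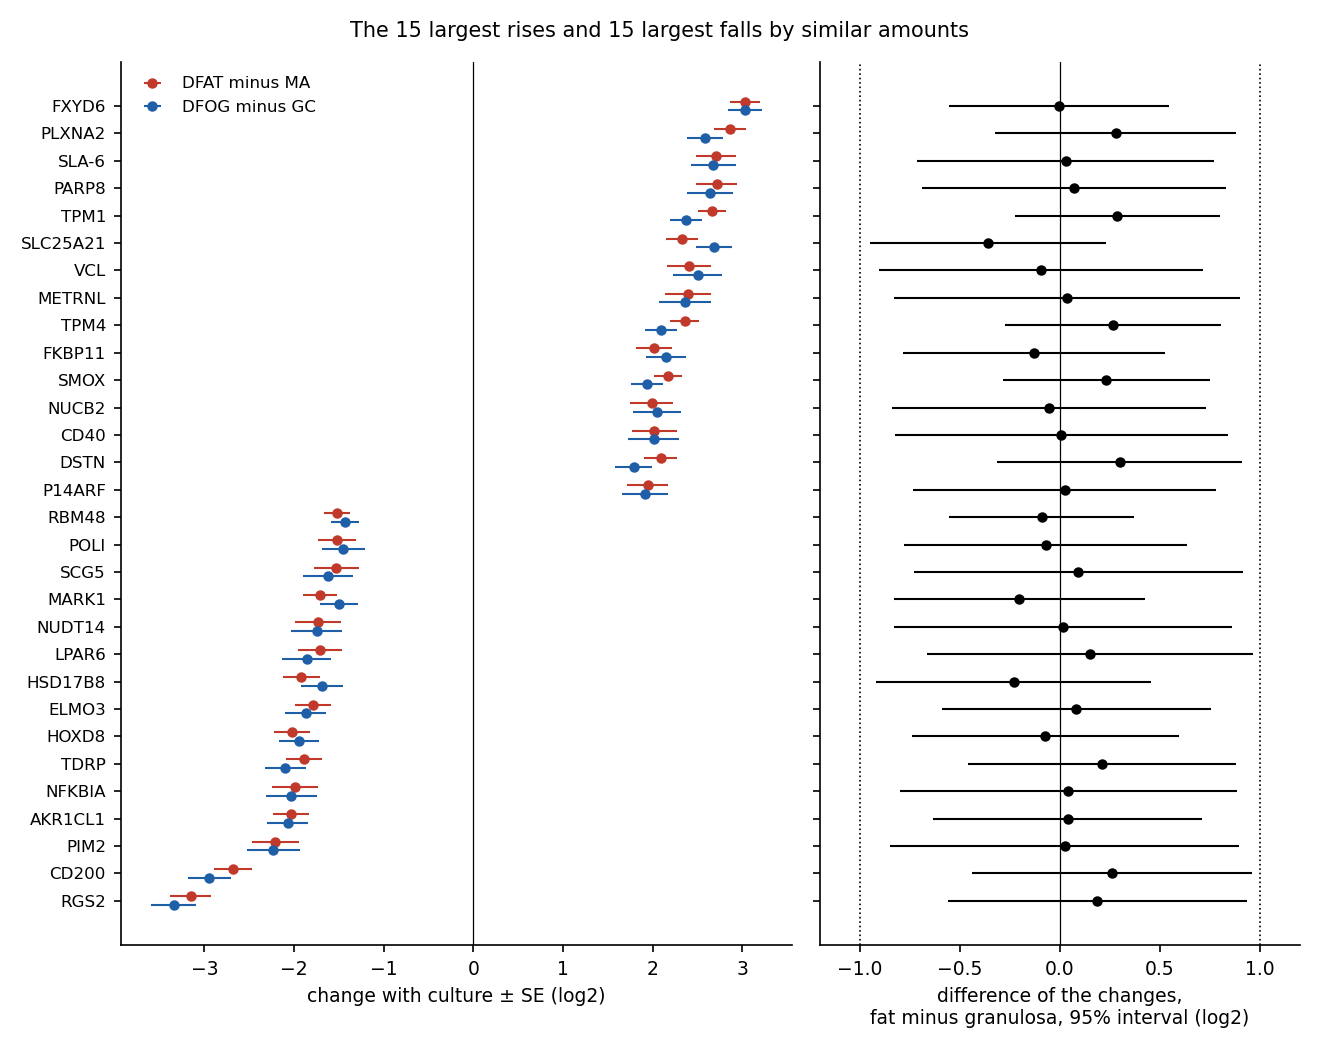
The 15 largest rises and 15 largest falls by similar amounts. The left panel gives the change with culture ± SE (log2) in fat cells (DFAT minus MA, red) and granulosa cells (DFOG minus GC, blue). The right panel gives the difference of both changes with its 95% interval, and dotted lines mark the bound of -1 to 1 that all of these intervals lie within.

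The bound passed through a continuum. Just inside it among the rises were ACTR1A (1.14, interval -0.26 to 0.99), EEF1E1 (1.36) and TPI1 (1.32). MECOM (2.47), ZDHHC16 (1.03) and ARPC1B (2.48, interval -0.37 to 1.02) were just outside. Among the falls PM20D2 (-1.37), VTN (-1.39) and CETN3 (-1.10) stood just inside, and FBXL5 (-1.05), FMC1 (-1.07) and NUDT16 (-1.21) just outside. Besides the genes already given, the largest rises in the wider set, named after their values were seen, were the matrix glycoprotein SPP1 (5.71 in fat cells and 5.47 in granulosa cells), AEBP1 (5.48 in fat cells and 4.77 in granulosa cells), the metalloreductase STEAP1 (4.34 in fat cells and 5.00 in granulosa cells) and the membrane protein EMP3 (4.53 in fat cells and 3.94 in granulosa cells).

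FOS and the adipogenic regulator PPARG were among the deepest falls of the wider set. FOS, the AP-1 subunit induced within minutes of many stimuli, was at 7.03, 8.67 and 9.05 in DFAT, against 13.29, 13.29 and 13.39 in MA. It was at 7.85 and 8.49 in DFOG, against 13.48, 13.49 and 13.05 in GC. The 6 isolated samples lay between 13.05 and 13.49 on the scale and the cultured samples between 7.03 and 9.05, without overlap, and the culture effect was -5.12 ± 0.31 (SE, limma adjusted p = 3.96e-07). JUN was at 10.29, 10.09 and 10.73 in DFAT, against 13.32, 13.23 and 13.28 in MA, and at 11.04 and 11.05 in DFOG, against 13.70, 13.61 and 13.13 in GC, with changes of -2.91 in fat cells and -2.44 in granulosa cells. EGR1 changed by -2.67 in fat cells and -2.09 in granulosa cells, ATF3 by -1.80 in fat cells and -3.27 in granulosa cells and the antiproliferative gene BTG2 by -3.97 in fat cells and -2.74 in granulosa cells. Of 24 immediate early genes 11 fell (45.8%) and 7 rose (29.2%), against 20.8% and 23.5% over all named genes. In both lineages tested alone 8 fell. The list median was -1.26 in fat cells and 0.01 in granulosa cells, and 3 members passed in opposite directions. Members that rose in the culture effect included KLF10, with 0.23 in fat cells, not passed, and 2.41 in granulosa cells, the kinase SGK1, with -1.18 in fat cells and 4.29 in granulosa cells, and the AP-1 subunit FOSL1, which rose in both (0.89). There were 9 falls and 2 rises with the actin covariate, and without DFAT replicates 2 and 3 the number that rose was 4.

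PPARG, the nuclear receptor that drives fat cell differentiation and is also made by granulosa cells, was at 7.72, 7.99 and 7.93 in DFAT, against 12.09, 12.49 and 12.57 in MA. In the granulosa lineage it was at 5.77 and 4.98 in DFOG, against 10.67, 9.30 and 9.95 in GC. Isolated cells of both kinds were far above their cultured counterparts, by nearly the same amount (-4.51 in fat cells and -4.60 in granulosa cells, culture effect -4.55 ± 0.24 SE, limma adjusted p = 1.24e-07), and fat cells stood above granulosa cells with and without culture. Among other large falls of the wider set were the transcriptional coregulator CITED1 (-3.92), FGL2 (-3.64), the epoxide hydrolase EPHX2 (-2.81), MLLT3 (-2.78), MBP (-2.40) and MARCH8 (-2.31), named after their values were seen.

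Genes of fatty acid and branched-chain amino acid oxidation fell for 22 of 30 members, 12 of them in both lineages, with a median of -1.17, and 19 to 24 fell under the alternatives. The list median was -1.84 in fat cells, against -0.43 in granulosa cells, and the change differed between the lineages for 19 members. PDK4, the kinase that shuts pyruvate dehydrogenase when fat is burned, was at 3.82, 4.64 and 4.73 in DFAT, against 12.06, 11.36 and 11.52 in MA. It was at 3.91 and 4.40 in DFOG, against 9.37, 8.61 and 9.40 in GC. The cultured samples of both lineages were near the bottom of the scale and did not overlap with isolated ones (culture effect -6.11 ± 0.23 SE, limma adjusted p = 1.18e-08), and the fall was larger in fat cells (difference -2.28, limma adjusted p = 0.00416). BCKDHB, a subunit of branched-chain ketoacid dehydrogenase, fell in both (-3.41 in fat cells and -2.24 in granulosa cells), and ACAA2, the last enzyme of the oxidation cycle, changed by -3.63 in fat cells and -0.67 in granulosa cells, not passed. The wider set also held DECR1 (-1.42 in fat cells and -1.23 in granulosa cells), ACADL (-1.44 in fat cells and -0.94 in granulosa cells) and BCAT2 (-1.18 in fat cells and -1.62 in granulosa cells). CPT1A, which brings fatty acids into mitochondria, rose in both (2.81 in fat cells and 1.30 in granulosa cells), and ACSL1 moved in opposite directions (-2.84 in fat cells and 3.95 in granulosa cells).

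The citric acid cycle and respiratory chain moved less. Of 34 members 10 fell (29.4%, against 20.8% over all named genes) and 3 rose, with a median of -0.21, and 21 did not pass. Just 2 of the 34 fell in both lineages tested alone. COX7A1, the tissue-specific form of a cytochrome oxidase subunit, changed by -2.98 in fat cells and -1.84 in granulosa cells, IDH3B by -1.30 in fat cells and -0.57 in granulosa cells, not passed, and the succinate dehydrogenase subunit SDHC by -1.40 in fat cells and -0.36 in granulosa cells, not passed, while IDH2 rose (2.46 in fat cells and 0.35 in granulosa cells, not passed). Without DFAT replicates 2 and 3, or with the actin covariate, 6 of the 34 fell.

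Antioxidant and detoxification enzymes fell for 18 of 33 members and rose for 7 (21.2%, near the 23.5% over all named genes), with 7 falling in both lineages. MGST1, a membrane-bound glutathione transferase, was at 9.71, 10.53 and 10.78 in DFAT, against 13.58, 13.76 and 13.74 in MA, and at 8.33 and 8.60 in DFOG, against 13.45, 14.03 and 13.36 in GC. Its level was near the top of the scale in both isolated groups and lower in every cultured sample, with a culture effect of -4.25 ± 0.20 (SE, limma adjusted p = 6.07e-08). Catalase, CAT, changed by -2.64 in fat cells and -0.90 in granulosa cells and the quinone reductase NQO1 by -1.09 in fat cells and -2.78 in granulosa cells. Other falls came from 1 lineage: GSTA1 changed by -0.38 in fat cells, not passed, and -8.16 in granulosa cells, GPX3 by -5.34 in fat cells and -0.59 in granulosa cells, not passed, and ALDH1A1 by -3.86 in fat cells and -0.44 in granulosa cells, not passed. PRDX4, the peroxiredoxin of the endoplasmic reticulum, rose in both (2.04 in fat cells and 0.89 in granulosa cells).

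Among 10 clock and glucocorticoid response genes 6 fell and 2 rose, and 3 fell in both lineages tested alone. TSC22D3, the glucocorticoid-induced leucine zipper, was at 8.34, 8.89 and 9.06 in DFAT, against 11.29, 10.61 and 10.81 in MA, and at 7.87 and 8.73 in DFOG, against 10.98, 11.07 and 11.03 in GC. Cultured and isolated samples did not overlap in either lineage, and its culture effect was -2.43 ± 0.20 (SE, limma adjusted p = 3.17e-06). FKBP5, another glucocorticoid target, fell in both (-2.00 in fat cells and -1.22 in granulosa cells), and HSD11B1, which regenerates active glucocorticoid, had a culture effect of -2.42 ± 0.41. The clock repressor CRY2 changed by -2.59 in fat cells and -0.78 in granulosa cells, not passed, and BHLHE40 rose (2.10), with 0.41 in fat cells, not passed, and 3.80 in granulosa cells. With the actin covariate 2 of the 10 fell, and HSD11B1 no longer passed (limma adjusted p = 0.245).

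Genes that supply amino acids and nucleotides rose for 15 of 21 members and fell for 3, with a median of 0.95. Tested alone, 9 rose and 3 fell in both lineages. PYCR1, the last enzyme of proline synthesis, was at 9.89, 10.12 and 10.18 in DFAT, against 6.65, 6.49 and 6.32 in MA, and at 10.32 and 9.64 in DFOG, against 7.14, 6.67 and 6.56 in GC. Those groups did not overlap, and the rise was 3.38 ± 0.16 (SE, limma adjusted p = 6.52e-08). PHGDH, which opens serine synthesis, rose by 2.25 in fat cells and 1.55 in granulosa cells, the asparagine synthetase ASNS by 2.34 in fat cells and 1.85 in granulosa cells, the mitochondrial folate enzyme MTHFD2 by 4.06 in fat cells and 2.05 in granulosa cells and the cationic amino acid transporter SLC7A1 by 3.85 in fat cells and 2.38 in granulosa cells. In purine synthesis PPAT (-2.09 in fat cells and -3.90 in granulosa cells) and PAICS (-1.97 in fat cells and -2.93 in granulosa cells) fell, and GART rose by 1.21 ± 0.13.

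Glycolysis and pentose phosphate genes rose for 14 of 20 members and fell for 3, with 7 risen in both lineages and a median of 0.82. PGK1 and TPI1, both glycolytic enzymes, met the narrow rule with 1.32 ± 0.14 and 1.32 ± 0.15. The glucose transporter SLC2A1 was at 10.91, 12.01 and 11.09 in DFAT, against 8.98, 8.76 and 9.03 in MA, and at 10.61 and 9.99 in DFOG, against 7.51, 7.02 and 6.91 in GC. Its cultured samples were above all isolated ones (2.78 ± 0.22 SE, limma adjusted p = 2.31e-06). The lactate dehydrogenase LDHA rose by 3.24 in fat cells and 1.92 in granulosa cells, the hexokinase HK1 by 1.03 in fat cells and 2.35 in granulosa cells and the lactate exporter SLC16A3 by 2.78. ALDOC (-1.12), PKM (-0.98) and LDHB (-0.88) fell. These counts moved with the control measures: with the actin covariate 4 of 20 rose, and with poly-A centring 9.

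Of 31 genes for folding and transport in the endoplasmic reticulum 15 rose and none fell by limma (also none at an unadjusted p under 0.05), 8 of them rose in both lineages, with a median of 0.44. Among the coat proteins that carry cargo out of the compartment, SEC23A (1.55 in fat cells and 1.29 in granulosa cells) and SEC13 (1.06 in fat cells and 1.24 in granulosa cells) met the narrow rule, and SEC24D (2.63 in fat cells and 3.01 in granulosa cells) stood in the wider set. RCN1, a calcium-binding protein of the lumen, rose by 4.57 in fat cells and 2.86 in granulosa cells and the retrieval receptor KDELR3 by 1.96 in fat cells and 2.99 in granulosa cells. The stress-response genes HSPA5 (-0.16), HSP90B1 (0.29), CALR (-0.07), ATF4 (0.10) and DDIT3 (0.06) did not pass. Under the actin covariate 6 of 31 rose. Cytosolic ribosomal proteins hardly moved. Of 35 members 5 rose and 30 did not pass, all 35 lay between -0.30 and 0.52, and RPL3 (0.52), RPL8 (0.44), RPSA (0.43) and RPL13 (0.41) led. Their list median of 0.06 turned to -0.02 with poly-A centring, where none of the 35 passed, and none rose with the actin covariate.

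**Figure D5:**
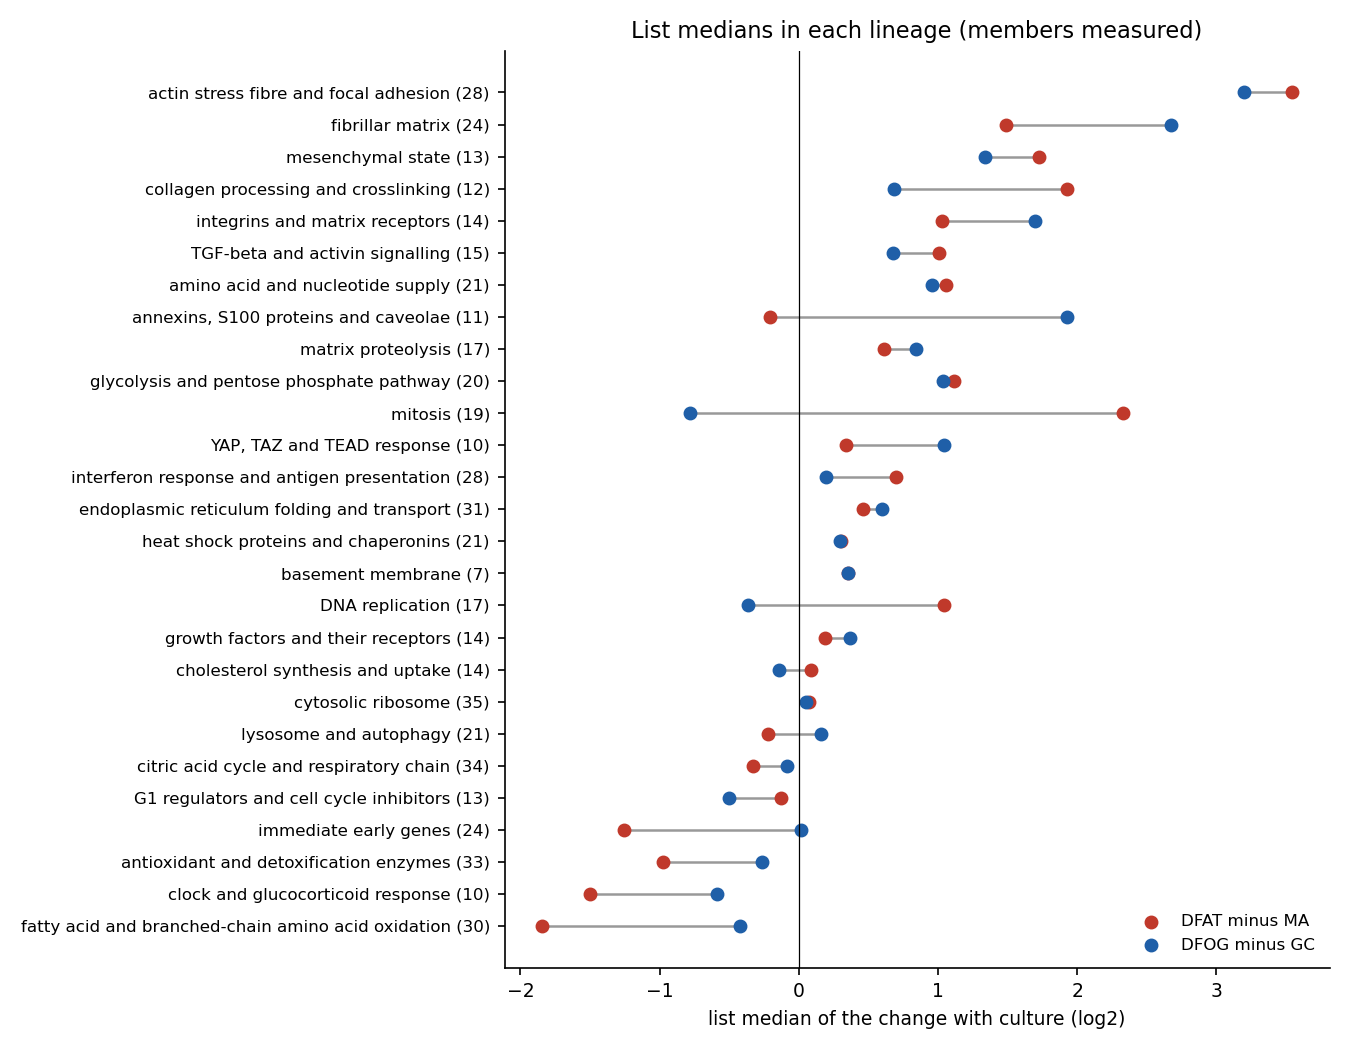
Median change with culture of the measured members of 27 gene lists (log2), in fat cells (DFAT minus MA, red) and granulosa cells (DFOG minus GC, blue), with the number measured in brackets. Actin genes have medians of 3.55 and 3.20, and the mitosis list has 2.33 in fat cells, against -0.78 in granulosa cells.

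Interferon response and antigen presentation genes rose for 12 of 28 members and fell for 2. Just 3 of the 28 rose in both lineages tested alone. Near equal changes were seen in the inducible proteasome subunits PSMB8 (1.66 in fat cells and 1.51 in granulosa cells) and PSMB10 (1.57 in fat cells and 1.49 in granulosa cells) and in the RNA sensor DDX58 (1.37 in fat cells and 1.61 in granulosa cells). PSMB8 was at 7.53, 7.73 and 8.29 in DFAT, against 5.82, 6.47 and 6.29 in MA, and at 6.95 and 6.71 in DFOG, against 5.56, 5.10 and 5.29 in GC, low levels with no overlap. The classical interferon-induced genes were uneven: MX1 had 2.70 in fat cells and 0.79 in granulosa cells, not passed, ISG15 3.29 in fat cells and -0.13 in granulosa cells, not passed, and GBP1 0.43 in fat cells, not passed, and 2.89 in granulosa cells, and IFIT1, IFIT2, IFIT3 and RSAD2 did not pass. The culture effect of ISG15 ran from 1.18 to 2.44 and did not pass in 11 of 21 alternatives, 8 of which left out a single sample. With the actin covariate 4 of 28 rose, and without DFAT replicates 2 and 3 the number was 7.

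Heat shock and chaperonin genes rose for 9 of 21 members and fell for 4 (19.0%, near the 20.8% over all named genes), with no rise in both lineages tested alone. HSPB8 changed by 0.21 in fat cells, not passed, and 3.71 in granulosa cells, CRYAB by 0.13 in fat cells, not passed, and 2.30 in granulosa cells, HSPA4 by 2.07 in fat cells and 0.53 in granulosa cells, not passed, and the co-chaperone DNAJB1 by -2.37 in fat cells and -0.94 in granulosa cells, not passed. With the actin covariate 1 rose, with poly-A centring 5, and without DFOG replicate 1 also 5. Of 14 cholesterol genes 3 rose (21.4%, near the 23.5% over all named genes) and 2 fell, among them FDFT1 (-0.69 in fat cells and -0.96 in granulosa cells). The 3 passed in fat cells alone: SQLE changed by 3.51 in fat cells and 0.40 in granulosa cells, not passed, FDPS by 1.78 in fat cells and 0.64 in granulosa cells, not passed, and TM7SF2 by 1.39 in fat cells and 0.69 in granulosa cells, not passed. The culture effect of TM7SF2 ran from 0.44 to 1.69 over 21 alternatives and did not pass in 7 of them, among them those without GC 3, DFOG 1, MA 2, MA 3 or DFAT 2. Of 21 lysosome and autophagy genes 3 rose and 5 fell, shares near those over all named genes. The cholesterol exporter of lysosomes NPC1 fell in both and stood in the wider set (-2.33 in fat cells and -1.84 in granulosa cells), the protease CTSZ changed by -1.29 in fat cells and -0.98 in granulosa cells, not passed, and CTSH by 0.31 in fat cells, not passed, and 2.01 in granulosa cells, and the acid lipase LIPA changed by -4.43 in fat cells and 0.14 in granulosa cells, not passed.

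Cell cycle genes moved differently in the 2 lineages. Of 19 mitosis genes 6 rose (31.6%, against 23.5% over all named genes) and 1 fell in the culture effect. None passed in both lineages in 1 direction, and the change differed between the lineages for 14. TOP2A, the topoisomerase that untangles chromosomes, was at 9.97, 8.81 and 7.69 in DFAT, against 4.34, 3.82 and 4.22 in MA, and at 9.99 and 9.30 in DFOG, against 12.24, 11.33 and 11.39 in GC. Isolated adipocytes were the lowest group and isolated granulosa cells the highest, with both cultured groups between them. CCNB1 changed by 5.31 in fat cells and -0.74 in granulosa cells, not passed, CCNB2 by 3.45 in fat cells and -0.78 in granulosa cells, not passed, and UBE2C by 3.71 in fat cells and -1.21 in granulosa cells, not passed. Of the 17 DNA replication genes 4 rose, the same share of 23.5% as over all named genes, with RRM2 at 5.03 in fat cells and 1.11 in granulosa cells, not passed, TYMS at 4.44 in fat cells and -0.03 in granulosa cells, not passed, and MCM2 at 2.18 in fat cells and -0.26 in granulosa cells, not passed, and RPA3 fell in both (-0.97). Without DFAT replicates 2 and 3, 15 mitosis and 11 replication genes rose. The number of mitosis genes that rose was 10 without DFAT replicate 3 alone, 3 without DFOG replicate 1 and 0 with the actin covariate. Among 13 G1 regulators 5 rose and 5 fell: CCNG2 (-1.52 in fat cells and -2.64 in granulosa cells) and RBL2, a pocket protein of quiescent cells (-2.15 in fat cells and -0.82 in granulosa cells), fell in both lineages, while CCND2 changed by 4.33 in fat cells and -1.27 in granulosa cells, not passed, and MYC by -0.61 in fat cells and 3.01 in granulosa cells.

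Identity genes of each lineage fell mostly in their own lineage. Of 16 adipocyte genes 14 fell in the culture effect, with a list median of -4.78 in fat cells and -0.05 in granulosa cells, and PPARG alone passed in both lineages tested alone in 1 direction. ADIPOQ, the fat hormone adiponectin, changed by -8.21 in fat cells and -0.13 in granulosa cells, not passed, LIPE by -6.34 in fat cells and -0.14 in granulosa cells, not passed, and LPL by -5.42 in fat cells and -1.05 in granulosa cells, not passed. Of 22 granulosa genes 12 fell, 3 rose and 7 did not pass, with a list median of 0.02 in fat cells and -0.93 in granulosa cells. Of the 22, 1 fell in both lineages tested alone and 2 passed in opposite directions. The 4 members with the largest culture effects come next. HSD17B1, which makes oestradiol, changed by 0.03 in fat cells, not passed, and -8.40 in granulosa cells, INHA by -0.23 in fat cells, not passed, and -7.20 in granulosa cells, FST by 0.44 in fat cells, not passed, and -5.19 in granulosa cells and the luteinising hormone receptor LHCGR, which fell in both, by -1.28 in fat cells and -6.02 in granulosa cells. The adipocyte list averaged 6.83 to 7.43 in DFAT samples and 5.76 to 5.79 in DFOG, against 11.15 to 11.41 in MA and 5.86 to 6.01 in GC. The granulosa list averaged 5.95 to 6.07 in DFAT and 7.15 to 7.28 in DFOG, against 5.68 to 5.86 in MA and 8.90 to 9.15 in GC, so that each list was highest in the isolated group the labels name. Some defining markers gave no signal that set their group apart: the aromatase gene CYP19A1 was at 4.84 to 5.12 in GC, against 4.69 to 5.25 in MA, the granulosa factor FOXL2 was at 5.39 to 5.67 in GC, against 5.57 to 5.89 in MA, and resistin, RETN, did not pass in fat cells (-0.45, limma adjusted p = 0.209).

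Markers of cell types that may have come along with the isolated cells moved with culture in part. Of 19 macrophage markers 11 fell and 2 rose, and their mean level was 4.95 to 5.00 in DFAT and 4.59 to 4.66 in DFOG, against 6.01 to 6.59 in MA and 4.59 to 4.81 in GC. Group means above 6 were seen for 11 macrophage markers in MA, against 2 in GC. The class II gene SLA-DRA changed by -3.72 in fat cells and -0.36 in granulosa cells, not passed, and C1QC by -3.59 in fat cells and -0.17 in granulosa cells, not passed, whereas the myeloid factor SPI1 fell in both (-1.98 in fat cells and -1.90 in granulosa cells) and CD86 rose (3.37 in fat cells and 0.55 in granulosa cells, not passed). No value is 0 after this normalization, so that an absent marker cannot be told from a faint one. None of 13 lymphocyte markers passed by limma, 3 fell at an unadjusted p under 0.05, and 1 to 3 fell under 7 of the 20 alternatives. Of 14 endothelial markers 4 fell (TIE1 -1.49, RAMP2 with -2.02 in fat cells, CLDN5 -0.86 and CDH5 -0.53) and ENG rose (1.08). That share fallen was 28.6%, against 20.8% over all named genes. None of the 14 fell or rose in both lineages tested alone, and 2 passed in opposite directions. The change in fat cells minus that in granulosa cells was 1.96 for TIE1, -1.38 for CLDN5 and 1.82 for ENG. Their mean level was 5.44 to 5.60 in DFAT and 5.48 to 5.52 in DFOG, against 5.84 to 6.31 in MA and 5.38 to 5.50 in GC.

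Of 12 epithelial and mesothelial markers 4 fell, CLDN4 (-1.60), CLDN7 (-0.97), CDH1 (-0.95) and OCLN (-0.43), and KRT19 rose (-0.22 in fat cells, not passed, and 4.48 in granulosa cells). That share fallen was 33.3%, against 20.8% over all named genes. None of the 12 passed in both lineages tested alone, and the lineage difference of CLDN4 was -2.99. Of 9 theca and oocyte markers INSL3 (-1.69, lineage difference 2.63) and GDF9 (-1.01 in fat cells and -1.80 in granulosa cells) fell, of 5 erythrocyte markers HBB (-0.56), and of 10 skeletal muscle markers MYL1 (2.99) and DES (3.86 in fat cells and 1.98 in granulosa cells) rose and CKM (-0.75) fell. The shares fallen of the theca and erythrocyte lists (22.2% and 20%) were near the 20.8% over all named genes. The share risen of the muscle list (20%) was near the 23.5% over all named genes. The muscle list averaged 5.33 to 5.88 in DFAT and 4.95 to 5.21 in DFOG, against 4.83 to 5.01 in MA and 4.60 to 4.66 in GC. The part of these other cells in the changes of the matrix, immediate early and actin lists was not tested.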

How the data were processed

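Total RNA was labelled with biotin and hybridised to 1-colour pig Affymetrix arrays, per the labels. The deposited values were log2 levels that the authors made with RMA, per the submitters' processing notes; its version and settings are not given in the sources used here. Members, lists and tests were chosen with earlier results of these data known. The 124 AFFX control probe sets were left out, which left 23999. Symbols came from the platform annotation, updated through Entrez IDs, and 6469 genes were named, each by its probe set with the highest mean level. A linear model of 4 group means (limma 3.58.1, R 4.3.3) was fitted to 11 samples, with DFOG replicates 2 and 3 averaged, and Benjamini-Hochberg adjustment ran over all probe sets. The threshold was an adjusted p of 0.05. The fit was tested on simulated data. Named were the 15 largest changes per direction within the narrow rule, up to 4 members per list (653 of 928 list genes measured) with the largest change that passed, and 3 genes per direction on either side of the bound. The 15 largest changes per direction of the wider set were added after the values were seen. Alternatives changed scaling, covariates, bounds, filters and samples. With arrays, the number of arrays limits the precision.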

Additional observations from a re-analysis of the deposited data

Results flagged for a closer look

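The change with culture differed between the lineages for 5593 probe sets (limma adjusted p under 0.05) and for 82 of the 190 genes picked for naming. Over all 6469 genes with a name the number was 1901. The 190 hold genes picked for a small lineage difference and genes at the bound, so their share depends on how they were picked. Of the 82 the change was larger in absolute size in fat cells for 50 and in granulosa cells for 32, and its sign was opposite for 19. The values below are the difference, on the log2 scale, of the change in fat cells minus the change in granulosa cells, and poly-A centring adds 1.42 to all of them, which turns the sign of 6 (TGFB2, RBL2, COX7A1, SDHC, BCKDHB and CLDN5). Among genes of the cytoskeleton, matrix and adhesion it was 4.32 for ACTG2, -3.76 for ITGB3, -3.36 for FN1, 3.79 for TNC, -6.18 for DCN, -4.26 for LOX, 2.02 for LOXL1, 4.19 for FKBP10, 1.78 for P4HA2, -7.96 for COL15A1, -6.87 for LAMB1, -4.87 for SPARCL1, -2.74 for NID2, 2.60 for TIMP1, 2.16 for PLAU, -5.75 for CAV1 and -6.14 for S100A10. Among signalling genes it was -5.43 for F3, -2.21 for TGFB1, -1.30 for TGFB2, 2.63 for TGFB3, -3.32 for LIF, -1.45 for FGFR2 and -2.82 for GHR. Cell cycle genes had positive differences, larger rises in fat cells, except RBL2 and MYC: 6.05 for CCNB1, 6.71 for TOP2A, 4.23 for CCNB2, 4.92 for UBE2C, 3.91 for RRM2, 4.46 for TYMS, 2.44 for MCM2, 5.60 for CCND2, -1.34 for RBL2 and -3.61 for MYC.

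In metabolism the difference was 1.32 for LDHA, -1.13 for COX7A1, 2.11 for IDH2, -1.04 for SDHC, -2.28 for PDK4, -1.17 for BCKDHB, -2.96 for ACAA2, 1.52 for CPT1A, 7.78 for GSTA1, 1.79 for MGST1, -4.74 for GPX3, -3.42 for ALDH1A1, 3.11 for SQLE, 1.14 for FDPS, 1.47 for SLC7A1, 2.01 for MTHFD2, 1.81 for PPAT, -4.57 for LIPA and -1.70 for CTSH. Among stress, clock, folding and interferon genes it was 1.47 for ATF3, -3.50 for HSPB8, 1.53 for HSPA4, -2.17 for CRYAB, -3.39 for BHLHE40, -1.81 for CRY2, 1.70 for RCN1, 0.97 for RPL13, -2.45 for GBP1 and 3.42 for ISG15. Identity genes split by lineage, with -8.09 for ADIPOQ, -6.20 for LIPE and -4.37 for LPL, and with 8.43 for HSD17B1, 6.98 for INHA, 4.74 for LHCGR and 5.63 for FST. Markers of other cells had -3.36 for SLA-DRA, 2.82 for CD86, -3.42 for C1QC, 1.96 for TIE1, 1.82 for ENG, -2.03 for RAMP2, -1.38 for CLDN5, -4.70 for KRT19, -2.99 for CLDN4, -1.44 for CLDN7, 2.63 for INSL3 and 0.78 for GDF9.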

How the results depend on the processing

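Of the counts over all genes, 98 alternative values lay within 1.5 times the reported one and 16 did not. When each array was centred on its poly-A spikes 2651 probe sets rose, 0 and 4 named genes rose and fell by similar amounts, and the lineage difference passed for 16761. This centring moves all changes by a constant within each lineage (medians 0.56 in fat cells, -0.81 in granulosa cells and -0.13 for the culture effect). With the actin 3′ minus 5′ difference as a covariate 1992 rose and 2609 fell. Against a 2-fold null 942 rose and 668 fell. Similar rises and falls numbered 2 and 2 with the interval within 1.5-fold, 292 and 171 by the estimate alone, and 165 and 81 where the smaller change was at least 75% of the larger, a rule chosen after seeing the data. Leaving out 1 sample gave 55 to 86 similar rises and 26 to 48 similar falls, lowest without DFOG replicate 1, and the members turned over more than the counts: 66 of the 129 genes stayed without DFOG replicate 1, 85 without MA replicate 2 and 53 without DFAT replicates 2 and 3. Without DFOG replicate 1 the lone DFOG sample is assumed to vary like the other groups. With DFOG replicates 2 and 3 as separate samples 4457 rose, 5006 fell, 107 and 55 moved by similar amounts and 6639 differed between lineages, and with the replicate block added to that the numbers were 4643, 5219, 108, 61 and 7020. The replicate numbers were not taken as pairing (correlations of deviations 0.0999 to 0.168 in fat cells and 0.355 to 0.604 in granulosa cells), although 11 of 12 samples correlated best with their own number. Of 190 named genes 162 kept their call in every setting, 26 lost it with the actin covariate, and none changed sign. Ribosomal proteins risen numbered 2 to 3 without GC 2, GC 3, DFOG 1, MA 1, MA 2 or DFAT 3, DNA replication genes fallen 4 without DFAT 1, and cholesterol genes risen 4 with DFOG replicates 2 and 3 apart and 5 with the block as well. Calls were lost without a single sample for TOP2A and CCNB2 (DFOG 1), RPL8, RPL13, TM7SF2, ISG15 and HBB. RNA quality, the lack of a measure of total RNA per cell, n = 2 in DFOG and the unknown source of the replicates limit these results.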

Other observations

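Gene families outside the lists, which were picked after their values were seen and carry no test of their own, moved with culture to unequal extents. All 9 measured subunits of the ARP2/3 complex, which nucleates branched actin filaments, rose in the culture effect, 7 of them in both lineages, with a median of 1.44. Values ran from 0.52 for ARPC3 and 0.99 for ARPC1A to 2.48 for ARPC1B, and the core subunits ACTR2 and ACTR3 rose by 1.24 and 1.60. Of the 9, 7 rose with the actin covariate, 4 of them in both lineages, and 8 with poly-A centring, 3 of them in both.

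Cytosolic aminoacyl-tRNA synthetases, which load amino acids onto tRNAs, rose for 11 of 15 members, 9 of them in both lineages, with a median of 0.96. GARS (3.42 in fat cells and 1.74 in granulosa cells), AARS (2.37 in fat cells and 1.68 in granulosa cells) and WARS (2.65 in fat cells and 1.11 in granulosa cells) led, and NARS and VARS moved by similar amounts. With the actin covariate 8 of the 15 rose, 7 in both lineages, and with poly-A centring 10, with 3 in both and a granulosa median of 0.19. Of 6 mitochondrial synthetases none rose by limma, and IARS2 (-1.13) and VARS2 (-0.94) fell. In the multi-synthetase complex EEF1E1 (1.36) and AIMP2 (1.11) rose and AIMP1 (-0.59) fell. Of 14 constitutive proteasome core subunits 3 rose, a share near the 23.5% over all named genes, none in both lineages and none with the actin covariate, while the inducible subunits PSMB8 and PSMB10 both rose. Of 6 intraflagellar transport genes, which build cilia, 4 fell, and 2 with the actin covariate.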
